A study of Homo sapiens with 6 samples.

Results

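The Wnt pathway was followed through 53 genes, from the secreted ligands to the factors that act with beta-catenin in the nucleus. The members were matched exactly by gene symbol to the platform's probe set annotation, and 52 of 53 had a probe set with 1 symbol, among 18265 genes in all. TCF7 was not analysed here. Each gene was read from the probe set that was brightest on average across the 6 arrays, and the remaining probe sets served as a check. The comparison was of 3 arrays labelled shTIGD1 with 3 arrays labelled shControl. Both groups were A549 cells, an established human line from a lung adenocarcinoma, grown in the same medium and given a lentivirus with a short hairpin RNA. In the shTIGD1 group the hairpin was directed at TIGD1, a gene that descends from a pogo-family transposase, and in the shControl group it was a negative control. The hairpin sequences are given because they define the groups, with no part marked.
shTIGD1: CTGCTAACACAACATCCAT
shNC: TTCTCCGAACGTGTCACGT

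A single hairpin against TIGD1 and a single cell line limit what the groups can stand for. The labels number the arrays as replicates without naming separate cultures, so the spread that p-values measure may be a technical one. The values are log2 signals on an array, and the number of arrays limits their precision.

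Wnt proteins are secreted lipid-modified ligands. They bind a frizzled receptor together with LRP5 or LRP6, which recruits dishevelled and the axin complex to the membrane. Without a ligand, axin, APC, casein kinase 1 and GSK3 mark beta-catenin for degradation, and with a ligand beta-catenin accumulates, enters the nucleus and replaces TLE corepressors on TCF and LEF factors. Several targets of this step, such as AXIN2, NKD1, RNF43 and ZNRF3, act back on the pathway as brakes. In the lung the pathway is known for its part in branching of the embryonic airway and in the maintenance of alveolar epithelial progenitors.

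TIGD1 itself was not lower past the threshold. It read 6.96, 6.93 and 6.85 in shControl against 6.88, 6.84 and 6.86 in shTIGD1, a log2 difference of -0.06 (SE 0.04, limma adjusted p = 0.389), so that every direction below is that of the array labels. Array medians lay between 6.27 and 6.28. Of 23 background control probe sets, 15 read under 5 on every array, while the highest reached 11.04, so a mean under 5 is treated as near background and a level above it is no proof of a transcript. Hybridization controls were lower on the shTIGD1 arrays (10.23 to 10.26 against 10.43 to 10.48), and so were poly-A controls (6.78 to 6.86 against 7.09 to 7.20). The signal at the 3′ end of ACTB exceeded that at its 5′ end by 0.31 to 0.36 on the shTIGD1 arrays and by 0.37 to 0.40 on the shControl arrays. All 10 epithelial and A549 markers had means above 5, and their mean level was 12.11 to 12.12 in shControl and 12.27 to 12.32 in shTIGD1. EPCAM (0.87) and CDH1 (0.66), the gene of the cadherin that holds beta-catenin at cell junctions, were the 2 that rose on the log2 scale. The 7 fibroblast markers lay at 4.51 to 4.62 and 4.46 to 4.50, with COL1A2, DCN, LUM and PDGFRA under 5. COL1A1 was under 5 in shControl only. PDGFRB (5.79 in shControl, 5.59 in shTIGD1) and COL3A1 (5.88 and 5.32) were above 5, and COL3A1 was lower in shTIGD1. The 9 immune and endothelial markers lay at 5.44 to 5.54 and 5.43 to 5.49, with PTPRC, CD3E and KDR under 5. PECAM1 and CDH5 were under 5 in shTIGD1 only. CSF1R and VWF were above 5, and CD14 (8.21 in both groups) and CD68 (7.36 and 7.40) well above it. The part of these values in the results was not tested.

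Within the pathway, 5 frizzled receptors, the Wnt carrier WLS and the R-spondin receptor LGR4 were higher in the arrays labelled shTIGD1. The corepressors TLE1, TLE3 and TLE4, the signal transducer DVL3, the ligand WNT7B, KREMEN2 and ZNRF3 were lower. Of 52 members measured, 9 passed as higher and 7 as lower at a limma adjusted p of 0.05. Over all genes 9.79% passed as higher and 14% as lower, 23.8% together, against 30.8% of the members. Among genes with a mean of at least 5 in a group, 13.3% passed as higher, 18.3% as lower and 31.6% in all, against 16 of 45 members (35.6%), so the members as a whole were close to the background. The 9 rises became 8 without shControl replicate 2, 4 without shControl replicate 1, shControl replicate 3 or shTIGD1 replicate 2, and 3 without shTIGD1 replicate 1 or 3. Of the 7 falls, 5 still passed without shControl replicate 2 or 3, 4 without shControl replicate 1, shTIGD1 replicate 1 or shTIGD1 replicate 2, and 3 (WNT7B, DVL3 and TLE4) without shTIGD1 replicate 3. The median log2 difference was -0.03 for the members and -0.04 for all genes. No member that passed reached 1.5-fold, and 5 reached 1.2-fold, with WLS at the top (0.41) and TLE4 at the bottom (-0.41). The groups did not overlap for 27 members (51.9%), where 42.3% of all genes had separate groups. Among genes with a mean of at least 5 in a group the shares were close, 57.8% of members and 54% of all genes. The split depended on the scaling. Levelling arrays on the hybridization or the poly-A controls moved the median of all genes to 0.17 or 0.30. Then 33 or 45 members passed as higher and 1 or 0 as lower. Over all genes 47.8% or 76.5% passed as higher and 1.98% or 0.652% as lower.

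**Figure D1:**
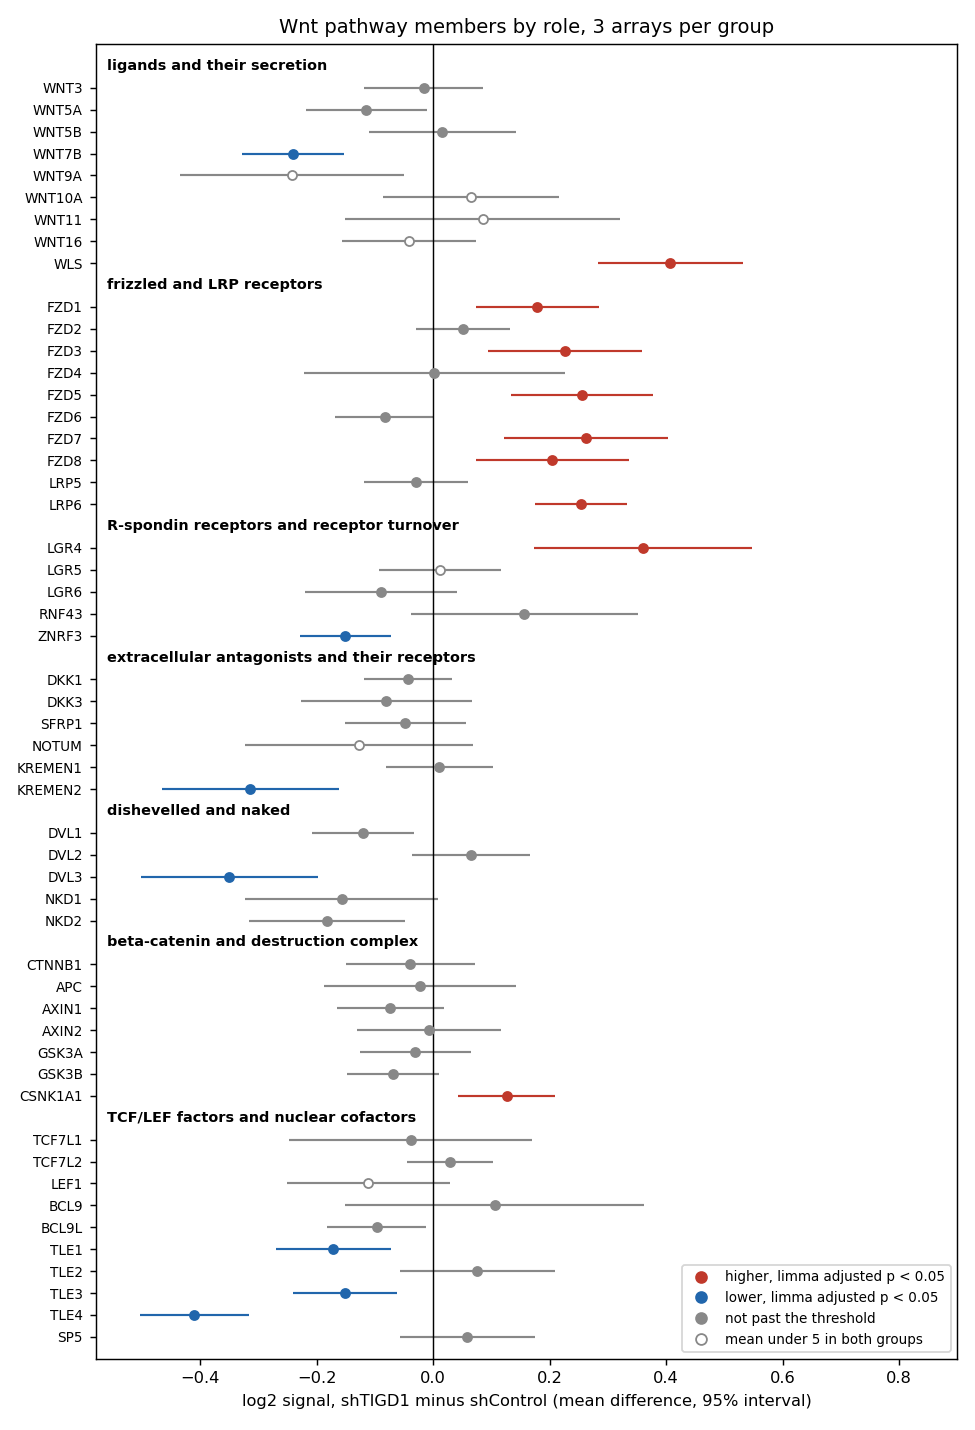
Log2 difference of each of 52 members (shTIGD1 minus shControl, mean of 3 arrays per group) with its 95% interval, ordered by role; red marks rises and blue falls at a limma adjusted p under 0.05, and open points have a mean under 5 in both groups. Of the frizzled and LRP receptors 6 of 10 are red and 0 are blue, and TLE1, TLE3 and TLE4 are blue.

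Among the ligands themselves little passed, whereas the gene for their transport rose. WLS, the carrier that brings lipid-modified Wnt proteins to the cell surface, read 7.58, 7.72 and 7.62 in shControl and 8.10, 7.99 and 8.06 in shTIGD1. All shTIGD1 arrays were above all shControl arrays. Its mean rose from 7.64 ± 0.07 to 8.05 ± 0.06 (SD, n = 3 each), or 1.33-fold (log2 difference 0.41, SE 0.05, limma adjusted p = 0.00344). Each of the 4 WLS probe sets rose, by 0.38 to 0.52 on the log2 scale.

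WNT7B, a ligand of the canonical branch that is important in the developing lung, fell. It read 9.89, 9.85 and 9.82 in shControl and 9.64, 9.58 and 9.62 in shTIGD1, with no overlap between the groups. The log2 difference was -0.24 (SE 0.04, limma adjusted p = 0.00592, n = 3 each), and of its 4 probe sets 2 were lower past the threshold and 0 higher. With arrays levelled on the hybridization controls the difference was -0.03, and on the poly-A controls it turned to 0.09. The other ligands among the members did not pass. Outside the members, WNT10B fell (log2 difference -0.26, SE 0.04, limma adjusted p = 0.00746). WNT5A, the main ligand of the beta-catenin-independent branch, read 7.37, 7.42 and 7.31 against 7.30, 7.24 and 7.21 (adjusted p = 0.107 in limma), and its groups were separate but close. WNT3 and WNT5B differed by -0.02 and 0.02 on the log2 scale. WNT9A, WNT10A, WNT11 and WNT16 had means under 5 in both groups, and no fold is given for them.

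By their brightest probe sets, 5 of the 8 frizzled genes among the members rose (FZD1, FZD3, FZD5, FZD7 and FZD8) and 0 fell. Over all genes 9.79% passed as higher, and 13.3% of those with a mean of at least 5 in a group. The 5 rose by 0.18 to 0.26 on the log2 scale, and the median over all 8 was 0.19 against -0.04 for all genes. FZD7, a receptor linked to epithelial progenitors, read 7.91, 8.04 and 7.91 in shControl and 8.27, 8.13 and 8.25 in shTIGD1. The lowest shTIGD1 array lay above the highest shControl array. Its log2 difference was 0.26 (SE 0.06, limma adjusted p = 0.0221, n = 3 each), and each of its 3 probe sets rose, by 0.26 to 0.35. The FZD7 call held only without shControl replicate 2 or shTIGD1 replicate 2 (limma adjusted p of 0.0683 to 0.0734 without each other array).

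FZD5, a canonical receptor of endodermal epithelium, read 8.59, 8.76 and 8.63 against 8.90, 8.91 and 8.95, again without overlap (log2 difference 0.26, SE 0.05, limma adjusted p = 0.0149). Of its 5 probe sets, 1 passed as higher and 0 as lower, with differences from -0.19 to 0.26. The FZD5 call was lost without shTIGD1 replicate 3 (limma adjusted p = 0.0545). FZD8 read 8.47, 8.64 and 8.51 against 8.79, 8.70 and 8.75, FZD3 6.25, 6.45 and 6.35 against 6.57, 6.57 and 6.58, and FZD1 6.56, 6.65 and 6.59 against 6.74, 6.84 and 6.76. In all 3 the groups were separate, with limma adjusted p of 0.0396, 0.0295 and 0.0305, and no second probe set passed. These 3 calls held only without shControl replicate 2 (limma adjusted p of 0.0557 to 0.119 without each other array).

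The remaining frizzled members did not pass, nor did FZD9 (log2 difference -0.01) and FZD10 (under 5 in both groups) outside the members. FZD2 differed by 0.05 (95% interval -0.03 to 0.13), FZD4 by 0.00 (-0.22 to 0.23) and FZD6, known mainly from planar cell polarity, by -0.08 (-0.17 to 0.00) on the log2 scale. Neither interval of FZD2 and FZD6 reaches the 0.18 to 0.26 of the receptors that rose. That of FZD4 reaches into this range, so a rise of the smaller sizes in it is not excluded for FZD4. The second probe set of FZD6 differed by 0.12, opposite in sign to its brightest, and did not pass (limma adjusted p = 0.0532 over all probe sets).

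The co-receptor LRP6 gave opposite results by probe set. Its brightest read 9.89, 9.93 and 9.88 in shControl and 10.15, 10.16 and 10.14 in shTIGD1 (log2 difference 0.25, SE 0.03, limma adjusted p = 0.00362). Its dimmer probe sets both fell (log2 differences -0.24 and -0.28, limma adjusted p = 0.0232 and 0.0188 over all probe sets). No direction is therefore given for LRP6. The related LRP5, with 1 probe set, differed by -0.03 (95% interval -0.12 to 0.06). With LRP6 counted by its brightest probe set, 6 of 10 frizzled and LRP receptors among the members passed as higher and 0 as lower. That count fell when most single arrays were left out, and over all genes calls as higher fell from 1789 to between 1176 and 1474. The receptor count was 2 without shControl replicate 1, shControl replicate 3 or shTIGD1 replicate 1, and 3 without shTIGD1 replicate 2. It was 1 without shTIGD1 replicate 3 and 6 without shControl replicate 2. Each of these counts includes the brightest probe set of LRP6. Without shTIGD1 replicate 3 no frizzled gene passed. Read from each gene's second brightest probe set, 1 passed as higher and 1 as lower.

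**Figure D2:**
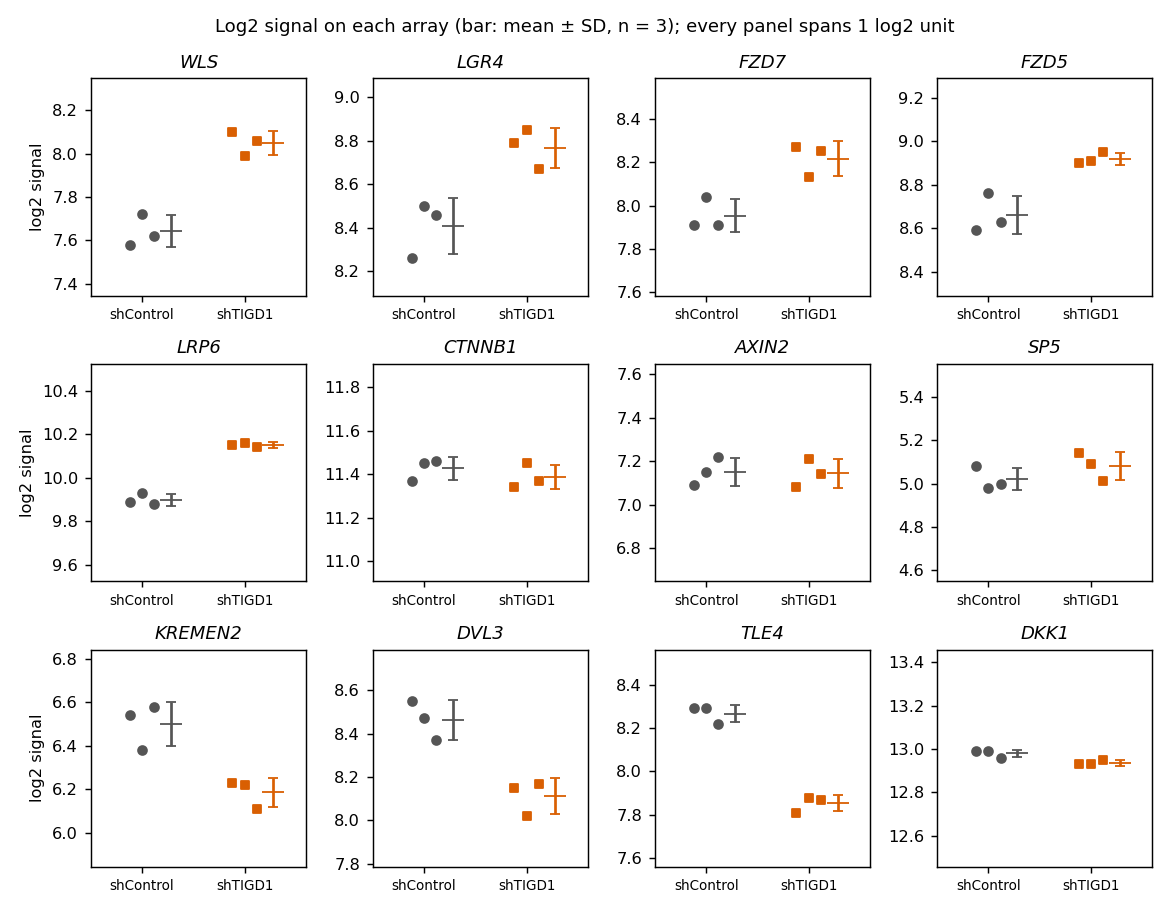
Log2 signal of 12 members on each of 3 shControl arrays (grey circles) and 3 shTIGD1 arrays (orange squares), with mean ± SD beside the points; each panel spans 1 log2 unit. WLS, LGR4, FZD7, FZD5 and LRP6 (brightest probe set) are higher and KREMEN2, DVL3 and TLE4 lower without overlap, while CTNNB1, AXIN2 and SP5 overlap.

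R-spondins raise Wnt sensitivity by binding LGR receptors and thereby removing the ubiquitin ligases RNF43 and ZNRF3, which clear frizzled from the membrane. LGR4 read 8.26, 8.50 and 8.46 in shControl and 8.79, 8.85 and 8.67 in shTIGD1. The shTIGD1 arrays were all higher, with means of 8.41 ± 0.13 and 8.77 ± 0.09 (SD, n = 3 each), a rise of 1.28-fold (log2 difference 0.36, SE 0.08, limma adjusted p = 0.0197). Its second probe set rose by 0.24. The call ended without shTIGD1 replicate 1 (limma adjusted p = 0.0645) and without shTIGD1 replicate 2 (limma adjusted p = 0.0658). LGR5, a stem cell marker of the gut, had means under 5, and LGR6 differed by -0.09 (adjusted p = 0.283 in limma).

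ZNRF3 fell by 0.15 on the log2 scale, from 9.16, 9.20 and 9.17 to 9.05, 9.02 and 9.02 (SE 0.03, limma adjusted p = 0.0195). The groups were close but separate. Its call held without shControl replicate 1 but not without any other single array (limma adjusted p from 0.0520 to 0.0656), and the difference turned to 0.06 with hybridization control and 0.18 with poly-A control scaling. RNF43, which has the same role, read 7.59, 7.70 and 7.62 against 7.80, 7.64 and 7.94 and did not pass (0.16, limma adjusted p = 0.218). Of its 6 probe sets 1 passed as higher, by 0.32.

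The secreted antagonists among the members did not differ past the threshold. DKK1, which blocks LRP co-receptors, read 12.99, 12.99 and 12.96 in shControl and 12.93, 12.93 and 12.95 in shTIGD1, a log2 difference of -0.04 (95% interval -0.12 to 0.03). DKK3 differed by -0.08 and SFRP1, which binds Wnt proteins directly, by -0.05. NOTUM, the enzyme that strips the lipid from Wnt proteins, was under 5 in both groups. KREMEN2, a receptor through which DKK1 removes LRP co-receptors from the surface, read 6.54, 6.38 and 6.58 against 6.23, 6.22 and 6.11. All shTIGD1 arrays were lower, a fall of 0.31 on the log2 scale (SE 0.06, limma adjusted p = 0.0156), or 1.24-fold. Without shControl replicate 1 or shTIGD1 replicate 3 the limma adjusted p was 0.0530 or 0.0518, and with poly-A control scaling the difference was 0.02. Its second probe set differed by -0.06 and did not pass. Its relative KREMEN1 differed by 0.01.

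Dishevelled proteins pass the signal from frizzled to the axin complex, and the 3 genes differed in their values. DVL3 read 8.55, 8.47 and 8.37 in shControl and 8.15, 8.02 and 8.17 in shTIGD1, with no overlap. It fell by 0.35 on the log2 scale (SE 0.06, limma adjusted p = 0.0108), or 1.27-fold, and passed with each array left out in turn. With hybridization and poly-A control scaling the difference was -0.14 and -0.02, and neither passed. Its other 3 probe sets, of which 2 hold identical values, differed by -0.07, -0.07 and -0.04 and did not pass. DVL1 differed by -0.12 (adjusted p = 0.0582 in limma) and DVL2 by 0.07 (adjusted p = 0.316 in limma). NKD1 and NKD2, which bind dishevelled and dampen the signal, differed by -0.16 and -0.18 and did not pass, the latter close to background.

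Of beta-catenin and 6 genes of the complex that degrades it, 1 passed by its brightest probe set (14.3%, against 23.8% of all genes). CTNNB1, the gene of beta-catenin, read 11.37, 11.45 and 11.46 in shControl and 11.34, 11.45 and 11.37 in shTIGD1, with overlapping groups (log2 difference -0.04, 95% interval -0.15 to 0.07). Dimmer CTNNB1 probe sets read otherwise: 4 of 8 passed as higher, by 0.13 to 0.25, and 0 as lower. These values are of transcripts, whereas the pathway is known to act mainly on the stability of the protein.

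The scaffold genes APC, AXIN1 and AXIN2 differed by -0.02, -0.07 and -0.01 and did not pass, nor did the kinase genes GSK3A (-0.03) and GSK3B (-0.07). A second GSK3B probe set fell by 0.42. CSNK1A1, the kinase that primes beta-catenin, rose by 0.13 (SE 0.03, limma adjusted p = 0.0432), from 11.65, 11.72 and 11.69 to 11.80, 11.82 and 11.82. The groups were separate. That call was lost when any 1 array was left out (limma adjusted p from 0.0562 to 0.117), while 5 of its 10 probe sets passed as higher when each was tested on its own, up to 0.46, and 0 as lower.

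**Figure D3:**
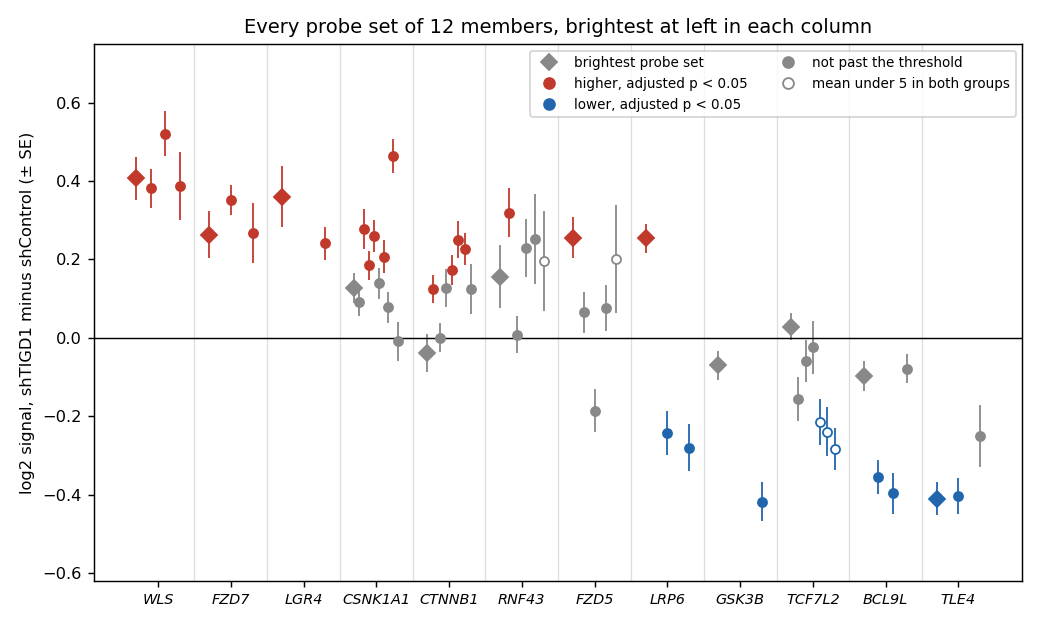
Log2 difference (shTIGD1 minus shControl, ± SE, 3 arrays per group) of every probe set of 12 members, with the brightest as a diamond at the left of each column and colours by limma adjusted p over all probe sets; open circles have a mean under 5 in both groups. All 4 probe sets of WLS and all 3 of FZD7 are higher, LRP6 has 1 higher and 2 lower, and 4 of the 8 of CTNNB1 are higher.

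In the nucleus, 3 of 4 genes of the TLE corepressor family were lower as deposited. Over all genes 14% passed as lower, and 18.3% of those with a mean of at least 5 in a group. TLE1 and TLE3 turned positive with both control scalings. The DNA-binding partners of beta-catenin did not pass by their brightest probe sets. TLE4 had the largest fall of any member. It read 8.29, 8.29 and 8.22 in shControl and 7.81, 7.88 and 7.87 in shTIGD1, with a gap wider than the spread within either group. Its mean fell from 8.27 ± 0.04 to 7.86 ± 0.04 (SD, n = 3 each), by 0.41 on the log2 scale or 1.33-fold (SE 0.04, limma adjusted p = 0.00136). Of its 3 probe sets, 2 passed as lower, by -0.41 and -0.40, and the third was at -0.25. It passed with each array left out in turn, and it stayed below 0 with hybridization control (-0.20) and poly-A control scaling (-0.08), but did not pass with the latter (limma adjusted p = 0.205).

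TLE1 read 9.56, 9.50 and 9.60 against 9.40, 9.34 and 9.40, and TLE3 7.98, 8.03 and 7.94 against 7.85, 7.81 and 7.84. Both had separate groups, and both fell (log2 differences -0.17 and -0.15, SE 0.04 each, limma adjusted p = 0.0282 and 0.0293). These calls were lost when most single arrays were left out. That of TLE1 held only without shControl replicate 2 and that of TLE3 only without shControl replicate 3. Without each other array the limma adjusted p was 0.0660 to 0.0816 for TLE1 and 0.0742 to 0.0828 for TLE3. Over all genes, calls as lower fell from 2556 to between 1566 and 1915. With 1 array left out the log2 difference ran from -0.20 to -0.15 for TLE1 and from -0.17 to -0.13 for TLE3. Both differences turned positive when arrays were levelled on hybridization controls (0.04 and 0.06) or on poly-A controls (0.16 and 0.18). The second TLE3 probe set differed by 0.00, and TLE1 has 1 probe set. TLE2 did not pass (0.08, limma adjusted p = 0.373), and 1 of its 3 probe sets passed as higher, by 0.19.

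TCF7L2, a TCF factor of epithelial cells, read 10.12, 10.15 and 10.14 against 10.17, 10.16 and 10.16, barely apart, with a log2 difference of 0.03 (95% interval -0.05 to 0.10). Of its 7 probe sets 3 passed as lower, all with means under 5. The brightest TCF7L1 probe set differed by -0.04 and did not pass, while of its other 2, with means above 5, 1 passed as lower (-0.25, limma adjusted p = 0.00896 over all probe sets) and 1 did not (-0.21, limma adjusted p = 0.0525). LEF1 was under 5 in both groups. The coactivators BCL9 and BCL9L, which link beta-catenin to the PYGO proteins, differed by 0.11 and -0.10 and did not pass, although 2 of 4 BCL9L probe sets passed as lower, at -0.36 and -0.40.

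**Figure D4:**
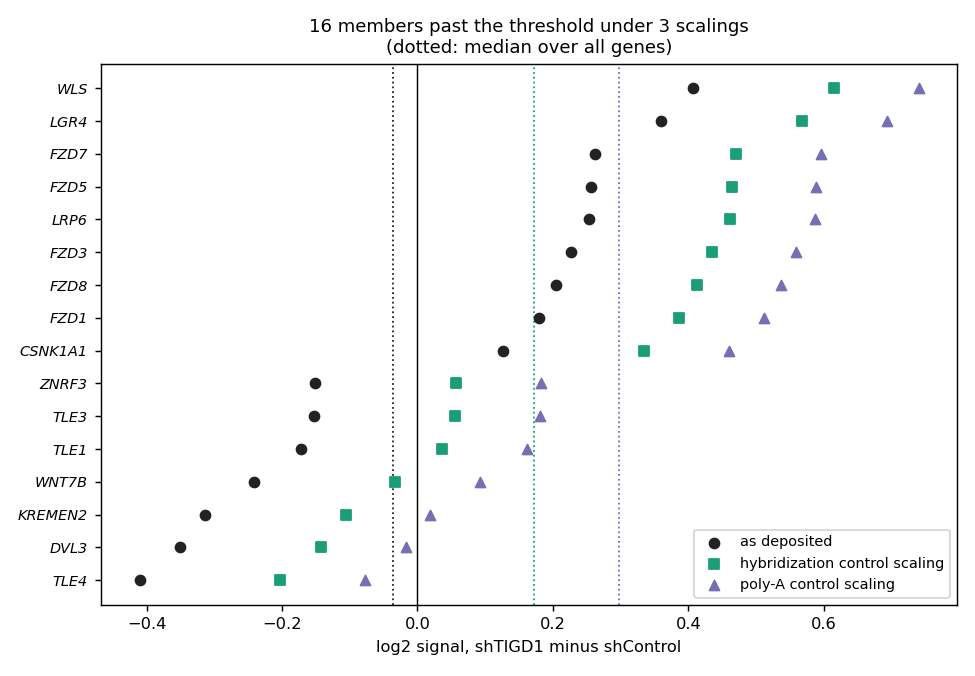
Log2 difference (shTIGD1 minus shControl) of the 16 members past the threshold as deposited (black circles), with arrays levelled on hybridization controls (green squares) and on poly-A controls (purple triangles); dotted lines are the medians over all genes, -0.04, 0.17 and 0.30. TLE4 and DVL3 stay below 0 under all 3, while ZNRF3, TLE3 and TLE1 turn positive under both control scalings and WNT7B and KREMEN2 under the poly-A scaling only.

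Some of the members are genes that beta-catenin is known to switch on. Of 8 such targets, 0 passed as higher and 1, ZNRF3, as lower (12.5% past the threshold, against 23.8% of all genes). Among all genes with a mean of at least 5 in a group 31.6% passed. With 8 genes the share cannot be told apart from that of all genes. The 8 were AXIN2, LGR5, NKD1, NOTUM, RNF43, ZNRF3, LEF1 and SP5, grouped after their values had been seen. LGR5, NOTUM and LEF1 had means under 5 in both groups. AXIN2, the most general target, read 7.09, 7.15 and 7.22 in shControl and 7.08, 7.21 and 7.14 in shTIGD1. The groups overlapped, and the interval of the log2 difference ran from -0.13 to 0.12. The other 2 AXIN2 probe sets were dimmer and had separate groups, higher in shTIGD1, with log2 differences of 0.23 and 0.15 that did not pass (limma adjusted p = 0.157 and 0.0957 over all probe sets). SP5, a transcription factor and target, read 5.08, 4.98 and 5.00 against 5.14, 5.09 and 5.01, with means just above 5 in both groups.

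The promoters of SP5, DKK1 and TLE4 are shown because, among the members with a window, these were the ones whose 250 bases upstream of a start site held a TCF/LEF-type motif, searched as CTTTGAT and CTTTGAA on both strands. Neither motif can overlap the other on the same strand. Windows were found for 36 members (51 windows, RefSeq, build GRCh38.p14). Of the 51 windows 3 held a match (5.88%), where 5.94% of 35116 windows of this length held one. A match is a description of the letters, not a site. Capitals mark the matches.
SP5 (chr2:170715087-170715336, plus strand): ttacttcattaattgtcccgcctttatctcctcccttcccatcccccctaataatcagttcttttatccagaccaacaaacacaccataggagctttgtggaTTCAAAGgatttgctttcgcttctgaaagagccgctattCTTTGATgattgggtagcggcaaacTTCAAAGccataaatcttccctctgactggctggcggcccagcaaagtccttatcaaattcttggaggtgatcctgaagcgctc
DKK1 (chr10:52314031-52314280, plus strand): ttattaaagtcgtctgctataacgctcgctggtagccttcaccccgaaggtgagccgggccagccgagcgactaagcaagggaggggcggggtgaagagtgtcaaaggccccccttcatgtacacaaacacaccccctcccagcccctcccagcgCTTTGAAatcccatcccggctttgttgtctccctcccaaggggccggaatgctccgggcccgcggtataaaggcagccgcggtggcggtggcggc
TLE4 (chr9:79572927-79573176, plus strand): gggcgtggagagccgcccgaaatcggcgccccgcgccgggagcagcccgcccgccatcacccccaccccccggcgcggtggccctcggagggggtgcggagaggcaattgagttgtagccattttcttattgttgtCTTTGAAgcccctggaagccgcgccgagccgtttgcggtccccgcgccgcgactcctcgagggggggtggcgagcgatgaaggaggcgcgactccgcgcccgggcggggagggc

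The SP5 window held 3 matches and the other 2 windows 1 each. Of these genes TLE4 fell, while DKK1 and SP5 did not pass. A second TLE4 window, upstream of another start site, held no match.

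Targets outside the members were mixed. By their brightest probe sets, of 27 measured 2 rose and 4 fell (22.2% past the threshold, against 23.8% of all genes), with a median log2 difference of 0.00. CD44 and BIRC5 did not pass by that rule (0.08 each). Several of their dimmer probe sets passed as higher and none as lower. The largest such rises were 0.23 for CD44 and 0.32 for BIRC5 (limma adjusted p = 0.0257 and 0.00315 over all probe sets). CCND1, the gene of cyclin D1, read 11.60, 11.56 and 11.59 in shControl and 11.14, 11.13 and 11.15 in shTIGD1. It fell by 0.44 on the log2 scale (SE 0.03, limma adjusted p = 0.000632), and all 4 probe sets fell, by 0.20 to 0.49. JUN, an AP-1 subunit, rose from 9.56, 9.67 and 9.60 to 10.07, 10.01 and 10.08 (0.44, SE 0.04, limma adjusted p = 0.00136), and all 4 probe sets rose. Both are also driven by other pathways.

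The ligand genes EDN1 (-0.34) and BMP4 (-0.32) fell (limma adjusted p = 0.00127 and 0.00345), and the protease gene MMP7 rose by 0.22 (limma adjusted p = 0.00575). MMP7 passed in the brightest of its 4 probe sets only. TWIST1 fell by 0.21 (limma adjusted p = 0.0348), a call lost without shControl replicate 3 or any single shTIGD1 array (limma adjusted p of 0.0601 to 0.0970). BMP4 turned to 0.01 and TWIST1 to 0.13 with poly-A control scaling, and TWIST1 to 0.00 with hybridization control scaling. MYC, a classical target, read 11.18, 11.21 and 11.22 against 11.13, 11.10 and 11.08 and did not pass (-0.10).

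Among 88 other genes of the pathway 9 rose and 14 fell, or 10.2% and 15.9%, near the 9.79% and 14% of all genes (26.1% against 23.8% in either direction), with a median log2 difference of -0.03. The rises numbered 5 without shControl replicate 3 and 4 without shTIGD1 replicate 2 or 3, and the falls 9 without shControl replicate 1 or shTIGD1 replicate 1. In the cytoplasm 4 rose and 4 fell of 22 measured. The tankyrases, which mark axin for degradation, had opposite signs by their brightest probe sets. TNKS rose by 0.40 (SE 0.03, limma adjusted p = 0.00107), and 2 of 4 probe sets passed. TNKS2 fell by 0.45 (SE 0.05, limma adjusted p = 0.00285), with 1 of 4 probe sets past the threshold and the others from -0.05 to 0.18. APC2, a relative of APC with 1 probe set, fell by 0.41 (SE 0.05, limma adjusted p = 0.00288). CTNND1, the p120 catenin of cell junctions, had 1 probe set at -0.31 and another at 0.26 that both passed, so no direction is given.

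In the nucleus 2 of 15 other regulators rose and 4 fell (13.3% and 26.7%, against 9.79% and 14% of all genes). Among genes with a mean of at least 5 in a group, 13.3% passed as higher and 18.3% as lower. CTNNBIP1, which binds beta-catenin and keeps it from TCF factors, read 7.45, 7.60 and 7.52 in shControl and fell by 0.54 on the log2 scale in shTIGD1 (SE 0.06, limma adjusted p = 0.00229). Its other 3 probe sets did not pass, with differences of 0.06, -0.17 and -0.18. TBL1XR1, a subunit of a nuclear corepressor complex that also acts with beta-catenin, rose by 0.42 (SE 0.04, limma adjusted p = 0.000977), and 2 of its 4 probe sets passed.

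Other receptors and co-receptors had 0 rises and 1 fall of 10, and other ligands with the R-spondins 0 rises and 2 falls of 15. For comparison with these and the counts that follow, 9.79% of all genes passed as higher and 14% as lower. Among the other antagonists 1 of 10 rose. This was SFRP4 (0.45, SE 0.12, limma adjusted p = 0.0407), a secreted frizzled-related protein, in 1 of 3 probe sets and with a call that held only without shControl replicate 2 or shTIGD1 replicate 1 (limma adjusted p of 0.100 to 0.116 without each other array). In the planar polarity and calcium branch 2 of 16 rose and 3 fell. DAAM1, a formin downstream of dishevelled, rose by 0.42 (SE 0.08, limma adjusted p = 0.0140), and missed the threshold without shTIGD1 replicate 2 or 3 (limma adjusted p = 0.0512 and 0.0510).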

How the data were processed

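Biotin-labelled RNA of 6 samples was hybridized to 1-colour Affymetrix arrays. What the authors deposited is a log2 signal for each probe set and array. The submitters' processing notes name GCOS and RMA without a version. No source used here states the log base, and base 2 was inferred from the range of the values. RMA makes the distributions of arrays alike, which removes a shift common to most genes. Of 49395 probe sets, 102 controls were left out, and 45336 had exactly 1 gene symbol in the platform annotation. This gave 18265 genes, each with its brightest probe set.

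Genes were compared, 3 arrays against 3, two-sided, in R 4.3.3 with the limma 3.58.1 functions lmFit and eBayes (no trend) and Benjamini-Hochberg adjustment over all genes at 0.05. Probe sets were also tested singly. The test was checked on simulated data. The members, gene lists and tests were chosen with earlier results of these data known. Values on all 6 arrays were to be given for members past the threshold with a log2 difference of at least 0.26 and a mean of at least 5; up to 8 other pathway and 8 target genes with the largest differences past the threshold were named. Array values of other members, RNF43 included, and of the target gene MYC were added after they had been seen. MYC, CD44, BIRC5, FZD9, FZD10 and WNT10B were named outside the naming rule, with their values known. Alternatives were other probe set rules, scalings, a filter at a mean of 5, other settings of the test, the replicate number as a block, and leaving out each array. No pair of arrays was a copy, with at most 184 equal values. Promoter windows came from RefSeq (GRCh38.p14).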

Additional observations from a re-analysis of the deposited data

How the results depend on the processing

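Repeated quantile normalization, equal array medians, array weights and a filter at a mean of 5 left each count of members within 1.5 times its value, and so did the trend and robust settings. The limit of the data is the size of the differences: against a 1.2-fold minimum (limma's treat) 262 genes passed, with 0 members higher and 0 lower, 0 and 0 other pathway genes and 0 and 1 targets. The replicate number as a block gave 2388 genes, 4 members higher and 3 lower, and 5 other pathway genes higher. Same-numbered arrays correlated at -0.03, -0.13 and -0.09 in their deviations. With 3 arrays per group these values cannot show whether the arrays were handled as pairs. Without 1 array at a time the counts ran from 2742 to 3389 genes, 3 to 8 members higher and 4 to 6 lower, 4 to 7 and 9 to 11 other pathway genes, and 2 to 3 and 3 to 4 targets.

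Signs are given below for genes that passed either as deposited or under the setting. The choice of probe set mattered. With the second brightest, 4 members and 4 targets were higher and 9 other pathway genes lower. Over all genes 9.87% then passed as higher and 9.55% as lower. The values of LRP6 (-0.24), CTNNBIP1 (0.061) and CTNND1 (0.26) had the opposite sign. So did 11 genes that passed in neither, among them AXIN2 (0.23), CTNNB1 (0.13) and TCF7L2 (-0.16). With the mean of all probe sets 5 targets were higher, as were 12.3% of all genes. There LRP6 (-0.090), CTNNB1 (0.12), TCF7L2 (-0.14) and CTNND1 (0.0016) turned, with 7 more that passed in neither, among them AXIN2 (0.12). With the trend and robust settings 14 other pathway genes were higher, with 5 targets higher and 8 lower, beside 13.4% and 18.4% of all genes. With the filter at 5 there were 7 targets lower, beside 23.9% of the 12787 genes kept.

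Each control scaling shifts all genes of an array by the same amount. On the hybridization controls 9099 genes passed, 47.8% of all as higher and 1.98% as lower. Members numbered 33 higher and 1 lower, other pathway genes 43 and 3, and targets 17 and 2. Values there turned above 0 for WNT3 (0.19), WNT16 (0.17), FZD6 (0.12), LRP5 (0.18), ZNRF3 (0.057), DKK1 (0.16), SFRP1 (0.16), CTNNB1 (0.17), AXIN1 (0.13), AXIN2 (0.20), GSK3A (0.18), GSK3B (0.14), BCL9L (0.11), TLE1 (0.036), TLE3 (0.056), TWIST1 (0.0023) and TIGD1 (0.15), and for 10 genes that passed in neither. On the poly-A controls 14084 genes passed, 76.5% of all as higher and 0.652% as lower. Members numbered 45 higher and 0 lower, other pathway genes 70 and 1, and targets 20 and 0. Values turned above 0 for WNT3 (0.32), WNT5A (0.22), WNT7B (0.092), WNT16 (0.29), FZD6 (0.25), LRP5 (0.30), LGR6 (0.24), ZNRF3 (0.18), DKK1 (0.29), DKK3 (0.25), SFRP1 (0.28), KREMEN2 (0.019), DVL1 (0.21), NKD1 (0.18), NKD2 (0.15), CTNNB1 (0.29), APC (0.31), AXIN1 (0.26), AXIN2 (0.33), GSK3A (0.30), GSK3B (0.26), TCF7L1 (0.29), LEF1 (0.22), BCL9L (0.24), TLE1 (0.16), TLE3 (0.18), CTNND1 (0.025), BMP4 (0.013), TWIST1 (0.13) and TIGD1 (0.28), and for 2 genes that passed in neither. Calls as higher made up 41.2% of all calls as deposited, 96% and 99.2% under these scalings. Which scaling is right was not tested.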
